A study of Mus musculus with 4 samples.

Results

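Blood vessel genes were followed through the dermal white adipose tissue (dWAT) of mouse skin, the fat layer that surrounds the lower ends of the hair follicles. The 10 genes were listed by name, and all 10 were found among the 22913 genes with deposited values. The first 8 mark the cells that line blood vessels (Pecam1, Cdh5, Kdr, Flt1, Tie1, Tek, Emcn and Vwf), and the other 2 encode secreted ligands that act on those cells (Vegfa and Angpt2).

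RNA sequencing gave 4 libraries, 1 for each of OTD and YTD (old and young mice in telogen, the resting phase of the hair cycle) and OAD and YAD (old and young mice in anagen, the growth phase). All mice were C57BL/6, and the dWAT was taken from skin by microdissection. Anagen was induced by plucking the hair in both ages, so that the phase and the response to plucking cannot be told apart. Old mice were 18 months and young mice 2 months of age according to the treatment notes, and the sample titles give old or young without months. The age field of the labels, however, gives 18 months for YTD and 2 months for OAD. The methods of the study give 20 mice per group, and each group yielded 1 library, so that no spread between animals is known and no test between groups can be made.

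The values are FPKM, which divide a gene's mapped fragments by its length and by the size of the library. An estimate of depth from the smallest FPKM of long genes came to 18800000 to 23700000 fragments per library, and the members rested on 33 to 5205 estimated fragments each. Intervals given here are 95% counting intervals from those estimates and cover counting error only. The 13 mitochondrially encoded genes took 44.7% of the summed FPKM in YTD, 52.7% in OTD, 14.4% in YAD and 18.3% in OAD, and a sum of hair shaft genes stood at 110 FPKM in YTD, 36.1 in OTD, 12053 in YAD and 11581 in OAD. The libraries of the 2 phases therefore differed strongly in composition.

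Blood vessels are lined by endothelial cells, which hold together through adhesion proteins such as PECAM1 and VE-cadherin and read growth signals through receptor tyrosine kinases. VEGFA, released by surrounding cells, binds the receptors VEGFR2 (Kdr) and VEGFR1 (Flt1) and drives vessel growth, while the angiopoietins bind TIE2 (Tek), with TIE1 as its partner, and set vessel stability. Fat tissue is rich in capillaries, and the vessels around hair follicles are known to be remodelled over the hair cycle.

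All 10 genes are protein coding, and Pecam1 (ENSMUSG00000020717) lies at chr11:106654217-106750628, Cdh5 (ENSMUSG00000031871) at chr8:104101625-104144502, Emcn (ENSMUSG00000054690) at chr3:137341067-137432185 and Vwf (ENSMUSG00000001930) at chr6:125546774-125686679 on GRCm38. The receptor genes lie at chr5:75932827-75978458 (Kdr, ENSMUSG00000062960), chr5:147561604-147726011 (Flt1, ENSMUSG00000029648), chr4:94739289-94874976 (Tek, ENSMUSG00000006386) and chr4:118471191-118490061 (Tie1, ENSMUSG00000033191). Vegfa (ENSMUSG00000023951) was placed at chr17:46016993-46032377 and Angpt2 (ENSMUSG00000031465) at chr8:18690263-18741562. The lengths behind the FPKM equalled a coding length in GENCODE M21 for each member but Vwf (8451 bp, against a longest of 8442 bp). They therefore appear to be those of coding sequences, which the sources used here do not state. Values per gene do not separate the splice forms of Vegfa or Flt1. Angpt2 lies inside Mcph1 on the opposite strand and Cdh5 overlaps the antisense gene Gm29682, and since the strand setting of the counting was not given in the sources used here, reads of these pairs may be mixed.

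Promoter sequence was found in the RefSeq table (GRCm38.p6) for 6 of the members, Emcn, Tek, Tie1, Kdr, Flt1 and Vegfa. The 250 bases before the start of 4 genes are printed because these genes stood at the ends of the range of change between the phases (Emcn and Vegfa) or form the pair of VEGF receptors (Kdr and Flt1), and for Vegfa the farther upstream of its 2 RefSeq starts is used. Capitals mark AGGAAG or its reverse complement CTTCCT, letters that ETS transcription factors of endothelial cells are known to bind. Each sequence runs 5′ to 3′ on the strand of the gene and ends at the base before the start.
Emcn, chr3:137340828-137341077, plus strand: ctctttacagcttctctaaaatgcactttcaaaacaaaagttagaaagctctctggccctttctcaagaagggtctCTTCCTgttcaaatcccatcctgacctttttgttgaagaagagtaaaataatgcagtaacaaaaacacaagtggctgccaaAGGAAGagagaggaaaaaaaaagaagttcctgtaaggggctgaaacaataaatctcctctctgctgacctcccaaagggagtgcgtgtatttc
Flt1, chr5:147726012-147726261, minus strand: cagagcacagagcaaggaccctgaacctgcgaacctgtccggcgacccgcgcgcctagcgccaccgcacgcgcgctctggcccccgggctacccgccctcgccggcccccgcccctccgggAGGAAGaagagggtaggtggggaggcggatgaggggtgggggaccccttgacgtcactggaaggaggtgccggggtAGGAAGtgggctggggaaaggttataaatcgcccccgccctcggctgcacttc
Kdr, chr5:75978456-75978705, minus strand: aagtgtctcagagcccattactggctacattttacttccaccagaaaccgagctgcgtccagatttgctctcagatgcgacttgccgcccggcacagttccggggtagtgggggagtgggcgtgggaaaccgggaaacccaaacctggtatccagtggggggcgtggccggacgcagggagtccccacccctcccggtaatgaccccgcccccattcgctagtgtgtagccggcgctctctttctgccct
Vegfa, chr17:46032378-46032627, minus strand: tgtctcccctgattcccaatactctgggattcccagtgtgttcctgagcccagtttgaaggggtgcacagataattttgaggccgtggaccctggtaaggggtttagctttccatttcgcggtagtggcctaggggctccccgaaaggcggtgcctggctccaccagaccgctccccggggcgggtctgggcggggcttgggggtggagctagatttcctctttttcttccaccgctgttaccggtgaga
Emcn held 2 matches, which began at -174 and -93 from the start, Flt1 held 2 at -129 and -53, and Tie1 held 1 at -219. No match was present in the windows of Tek, Kdr and Vegfa. On both strands the letters occur in 29.5% of 32851 mouse windows of the same length, and 3 of the 6 members with a window held them. GGGCGG, the core of the GC box, was present in Kdr (2 matches), Flt1 (3) and Vegfa (2), against 32.7% of all windows, and none of these overlapped an AGGAAG match. GC content ranged from 40.8% in Emcn to 70.4% in Flt1, beside a median of 52.4% over all windows. These are matches of letters and describe the windows alone.

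Pecam1 was the most abundant of the 8 endothelial genes in each library. The gene, which encodes the adhesion protein CD31 of endothelial junctions, stood at 69.1 FPKM in YTD, 119 in OTD, 18.3 in YAD and 23.9 in OAD. Its level lay above that of 97.0% of genes in OTD and of 82.1% in YAD. Cdh5, the VE-cadherin of the same junctions, stood at 40.7 FPKM in YTD, 51.4 in OTD, 11.9 in YAD and 13.5 in OAD. Emcn, the sialomucin endomucin that coats capillary and venous endothelium, stood at 21.5 FPKM in YTD, 48.1 in OTD, 4.25 in YAD and 7.75 in OAD. As a ratio of the highest to the lowest level, Emcn had the widest range of the 8 endothelial genes. Vwf, the clotting protein that endothelial cells store in granules and that platelets carry too, stood at 18.3 FPKM in YTD, 26.1 in OTD, 8.41 in YAD and 10.03 in OAD.

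The receptors were ordered in the same way. Kdr, the main signalling receptor for VEGFA, stood at 9.09 FPKM in YTD, 14.8 in OTD, 2.96 in YAD and 4.40 in OAD. Flt1, a receptor that binds VEGFA tightly and signals weakly, stood at 13.5 FPKM in YTD, 15.3 in OTD, 4.22 in YAD and 6.06 in OAD. Thus Flt1 lay above Kdr in YTD, OAD and YAD, while in OTD their counting intervals overlapped. Tek, the angiopoietin receptor, stood at 10.7 FPKM in YTD, 19.8 in OTD, 3.56 in YAD and 4.36 in OAD. Tie1, its partner without a firmly known ligand, stood at 20.96 FPKM in YTD, 32.2 in OTD, 7.87 in YAD and 8.23 in OAD, and the intervals of the last 2 libraries overlapped.

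The ligand Vegfa had another order of libraries. Vegfa stood at 31.5 FPKM in YTD, 29.2 in OTD, 20.5 in YAD and 19.0 in OAD, so the young library was the higher of each pair, with overlapping counting intervals within both phases. Among the 10 genes Vegfa had rank 5 by FPKM in OTD and rank 1 in YAD, where its interval overlapped that of Pecam1. Angpt2, an angiopoietin that can block TIE2 signalling and that endothelial cells release when vessels are remodelled, was the lowest gene in all 4 libraries. It stood at 2.88 FPKM in YTD, 4.20 in OTD, 0.998 in YAD and 0.935 in OAD, the anagen values resting on 35 and 33 estimated fragments.

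**Figure D1:**
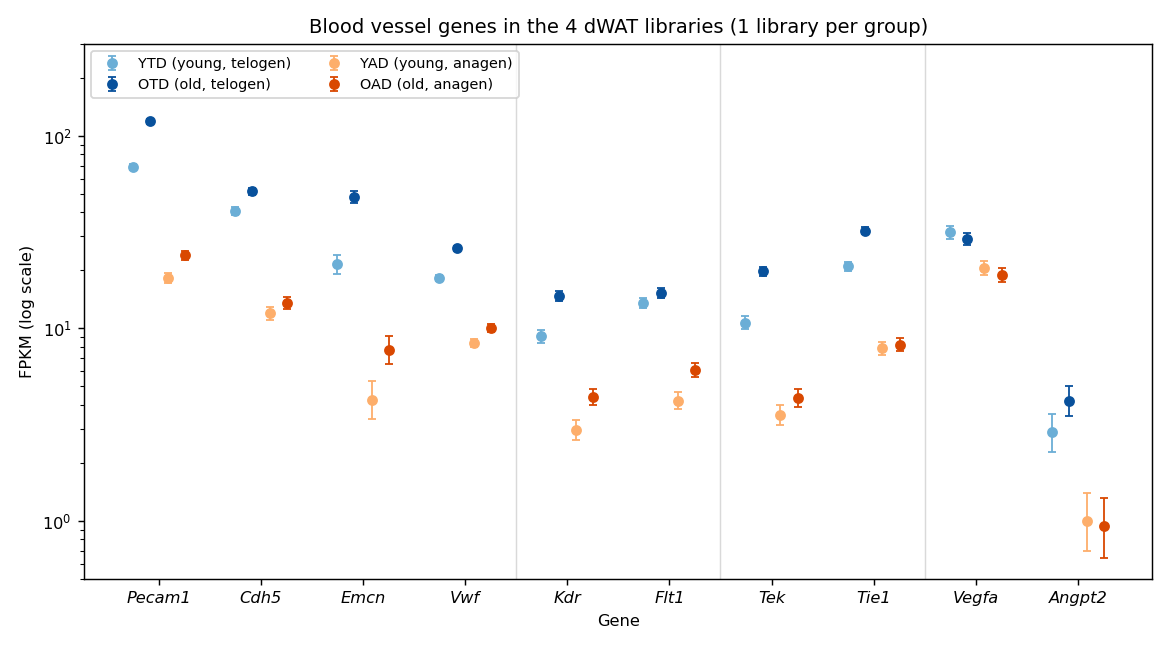
FPKM of each gene (log scale) in YTD, OTD, YAD and OAD, with 1 library per group as points and 95% counting intervals as bars. The 8 endothelial genes are ordered OTD, YTD, OAD, YAD from high to low, while Vegfa spans only 19.0 to 31.5 FPKM and Angpt2 is the lowest gene throughout.

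The first comparison set old against young dWAT in telogen, and asked how vessel genes differ with age in resting skin. Changes are differences of log2(FPKM + 1), so that those of low genes are understated, and a gene was counted as changed in size when the difference was at least 1. The 8 endothelial genes were all higher in OTD than in YTD, as deposited and under each of the 4 rescalings tried, with a median log2 change of 0.62 and their summed FPKM at 327 against 204. Over the genes with an FPKM of at least 1 the median was -0.06. Emcn had the largest change, 1.13 on the log2 scale or 2.24-fold (1.96 to 2.56). Tek was 1.85-fold (1.68 to 2.03), Pecam1 1.72-fold (1.65 to 1.80), Kdr 1.62-fold (1.48 to 1.79) and Tie1 1.54-fold (1.43 to 1.65) higher in OTD. The difference was smallest for Flt1, at 1.13-fold (1.04 to 1.23), with Cdh5 at 1.26-fold (1.19 to 1.34) and Vwf at 1.43-fold (1.36 to 1.499). The receptors of VEGFA thus differed unequally, Kdr more than Flt1.

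Vegfa did not share this direction. Its log2 change was -0.11 (fold 0.925, interval 0.831 to 1.03), and it turned to 0.11 when the mitochondrially encoded genes were left out before rescaling, which moved the median of genes with an FPKM of at least 1 to 0.12, and to 0.04 when muscle, hair, keratin and melanocyte genes were left out too. Angpt2 was 1.46-fold higher in OTD (1.09 to 1.96), a log2 change of 0.42. Emcn was the 1 gene of the 10 past a log2 change of 1, while 3.6% of the 17230 genes above 0 were past it in either direction and 1.67% were higher by that size. At a fold of 1.5 on the same scale, 5 of the 10 (Emcn, Tek, Pecam1, Kdr and Tie1) passed beside 16% of genes. With 1 library per group, the differences include whatever else separated these groups of mice, and more endothelial cells and more RNA per endothelial cell cannot be told apart in bulk tissue.

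In anagen the second comparison asked the same of OAD and YAD. The 8 endothelial genes were again higher in the old library as deposited, with a median log2 change of 0.30 beside -0.00 over the genes with an FPKM of at least 1, and their summed FPKM was 78.3 against 61.5. Emcn again had the largest difference, 1.82-fold (1.37 to 2.43). Kdr was 1.49-fold (1.28 to 1.74), Flt1 1.44-fold (1.26 to 1.64) and Pecam1 1.31-fold (1.20 to 1.42) higher in OAD. Tek (1.23-fold), Vwf (1.19-fold) and Cdh5 (1.13-fold) lay closer to equal levels. The interval of Tie1 included equal levels, at 1.05-fold (0.937 to 1.17).

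Vegfa was at a fold of 0.924 (0.819 to 1.04) and Angpt2 at 0.937 (0.564 to 1.55), both with intervals that included 1. None of the 10 genes was past a log2 change of 1, while 1.18% of 17613 genes above 0 were. Emcn alone passed a fold of 1.5, beside 4.97% of genes. The direction of the small differences depended on the scaling: in TPM, Cdh5 was at -0.05 and Tie1 at -0.15 on the log2 scale and 6 of the 8 endothelial genes were higher, and without mitochondrially encoded genes 7 of 8 were, but TPM moved the median of genes with an FPKM of at least 1 to -0.21, and relative to that median all 8 were above it. Among the 10, Angpt2 was the gene whose age difference had another sign in each phase (0.42 in telogen and -0.05 in anagen), and the difference between these was not tested.

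Setting anagen against telogen in each age gave larger differences. In young mice the 8 endothelial genes were all lower in YAD than in YTD, with a median log2 change of -1.42, and the same held in old mice for OAD against OTD, with a median of -1.85. The median over genes with an FPKM of at least 1 was 0.03 in young and 0.05 in old mice. These comparisons share no library with each other, but each shares 1 library with each comparison between ages. All 8 passed a log2 change of -1 in both ages, and so did Angpt2 in old mice. Among genes above 0, 32.7% of 17622 in young and 31.7% of 17712 in old mice were past 1 in either direction, and 16.7% and 15.6% were lower by that size.

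Emcn differed most, at 5.05-fold lower (3.94 to 6.55) in YAD than YTD and 6.21-fold lower (5.19 to 7.47) in OAD than OTD. Pecam1 was 3.78-fold (3.51 to 4.07) lower in young and 4.98-fold (4.68 to 5.30) lower in old mice. Cdh5 was 3.41-fold and 3.79-fold lower, Tek 3.01-fold and 4.54-fold, and Tie1 2.66-fold and 3.91-fold. Vwf had the smallest difference of the 8 in young mice, 2.17-fold (2.04 to 2.31). Flt1 was the gene of the 8 with a smaller difference in old mice (2.52-fold, 2.28 to 2.79) than in young mice (3.20-fold, 2.85 to 3.61). For Kdr the values were 3.07-fold lower in young and 3.36-fold lower in old mice, with overlapping intervals.

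Angpt2 was 2.88-fold (1.92 to 4.42) lower in YAD than YTD and 4.49-fold (3.04 to 6.80) lower in OAD than OTD. Vegfa was lower by much less, 1.54-fold in young (1.37 to 1.72) and 1.54-fold in old mice (1.37 to 1.73). In TPM, which gave a median over genes with an FPKM of at least 1 of 0.76 in young and 0.58 in old mice, the log2 change of Vegfa was 0.22 in young mice and -0.00 in old mice, or -0.54 and -0.58 relative to those medians. In the same scale the 8 endothelial genes stayed lower in anagen, from -0.25 (Vwf) to -1.36 (Emcn) in young and from -0.65 (Flt1) to -1.91 (Emcn) in old mice, so the direction for these 8 held under each rescaling.

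**Figure D2:**
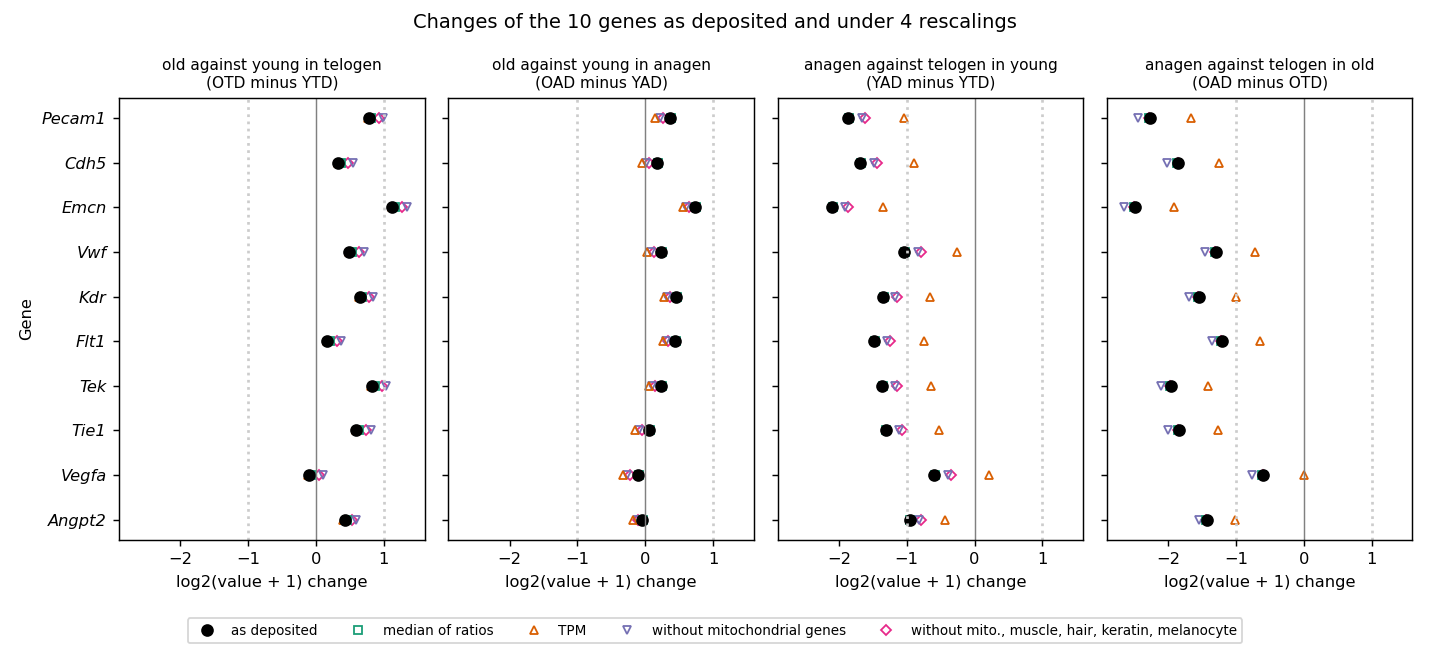
The log2 change of each gene in the 4 comparisons as deposited (filled points) and under 4 rescalings (open symbols), with dotted lines at 1 and -1; the squares of the median of ratios lie largely under the filled points. The 8 endothelial genes lie above 0 in telogen and below 0 in both comparisons of phases under each scaling, while Vegfa changes side with the scaling in telogen and between phases in young mice.

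Ratios between genes of 1 library do not depend on its scaling. Vegfa per unit of the summed FPKM of the 8 endothelial genes was 0.155 in YTD, 0.0893 in OTD, 0.334 in YAD and 0.242 in OAD, and no interval overlapped another. The ligand was therefore highest relative to the endothelial genes in the young anagen library and lowest in the old telogen library. This is the reverse of the order of the endothelial genes themselves. Vegfa spanned only 19.0 to 31.5 FPKM and the sum of the 8 spanned 61.5 to 327, so this order mostly follows the denominator. Against its signalling receptor the ratio Vegfa to Kdr was 3.47 in YTD, 1.98 in OTD, 6.95 in YAD and 4.32 in OAD, and the intervals of YTD and OAD overlapped.

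Kdr to Flt1 was 0.966 (0.891 to 1.05) in OTD, beside 0.673, 0.725 and 0.701 in YTD, OAD and YAD. Old telogen dWAT thus held more of the signalling receptor relative to Flt1 than the other 3 libraries, whose intervals overlapped each other. Tek to Tie1 was 0.511 in YTD, 0.615 in OTD, 0.452 in YAD and 0.530 in OAD. Angpt2 to Angpt1, the ligand that activates TIE2, was 0.546 in YTD, 0.835 in OTD, 1.14 in YAD and 0.919 in OAD with wide intervals, and Angpt1 itself stood at 5.27, 5.02, 0.878 and 1.02 FPKM in the same order. Vwf to Pecam1 was 0.264 in YTD, 0.219 in OTD, 0.460 in YAD and 0.419 in OAD, and so was higher in anagen than in telogen at both ages.

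**Figure D3:**
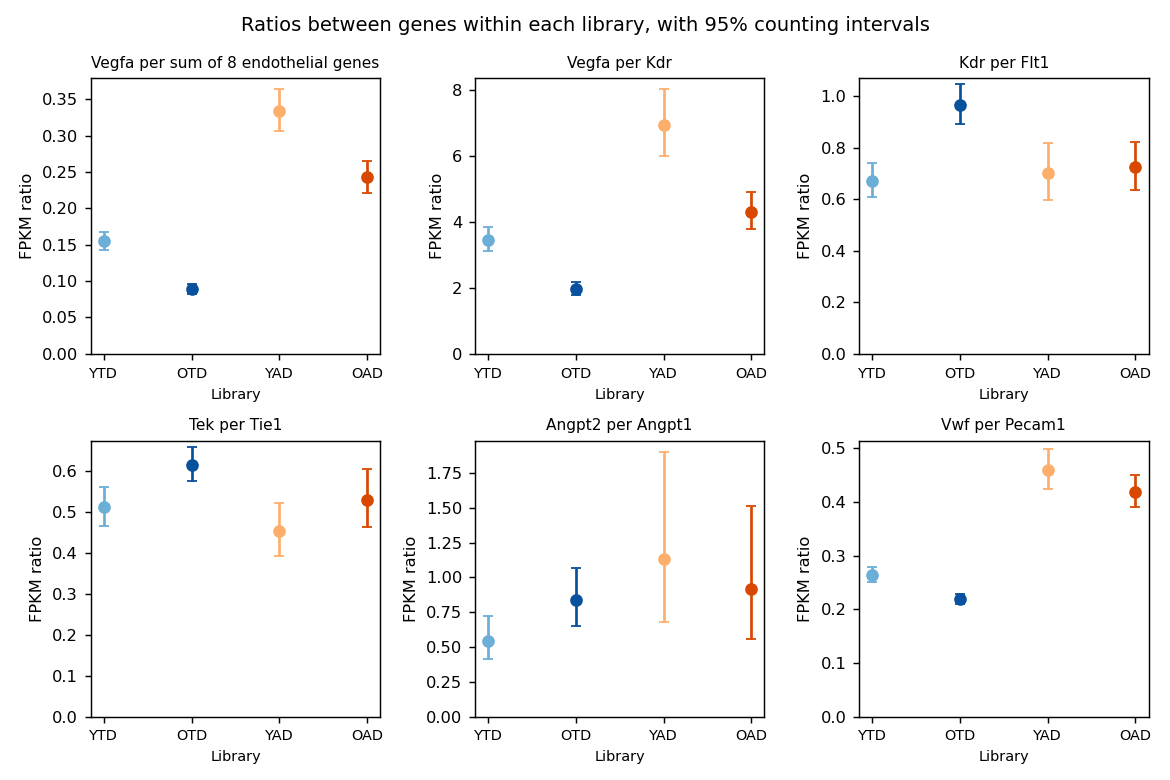
FPKM ratios between genes within each library, with 95% counting intervals (bars). Vegfa relative to the 8 endothelial genes ranges from 0.0893 in OTD to 0.334 in YAD, and Kdr to Flt1 stands apart in OTD at 0.966.

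The levels of 28 other endothelial genes, listed by name, were set beside the 8. In telogen 26 of 28 were higher in OTD (median log2 change 0.51), beside 45.8% of genes above 0. Rescaled by the median of ratios, 28 of 28 were higher, beside 48.7% of genes. In anagen 26 of 28 were higher in OAD (median 0.28), beside 50.0% of genes. In TPM this became 20 of 28 and 0.10, beside 25.3% of genes. As deposited 26 were lower in anagen by at least 1, beside 16.7% of genes in young and 15.6% in old mice. The medians were -1.54 in young and -1.73 in old mice. Between phases 27 of 28 were lower in anagen in both ages (26 in TPM in young mice), beside 48.8% of genes in young and 49.0% in old mice. The exception as deposited was Tm4sf1, a surface protein that epithelial cells carry too, at 47.9 FPKM in YTD, 94.3 in OTD, 80.8 in YAD and 153 in OAD. Ecscr, a regulator of endothelial migration, had the largest difference, at 23.1 FPKM in YTD, 46.7 in OTD, 4.82 in YAD and 6.43 in OAD.

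Relative to the geometric mean of these 28 genes, Vegfa was 2.08-fold higher in YAD than YTD and 2.39-fold higher in OAD than OTD. In telogen it was at 0.635 of its young level by the same measure, and in anagen at 0.731. Emcn was 1.54-fold higher in OTD than YTD on this scale and stood at 0.631 of its telogen level in YAD and 0.592 in OAD. With log2(FPKM + 1) values the median change of the 8 less the mean of the 28 was 0.10 in telogen and 0.0041 in anagen with age, and 0.0201 in young and -0.0626 in old mice with phase.

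The other VEGF ligands were low apart from Vegfb, a ligand of Flt1. Vegfb stood at 103 FPKM in YTD, 73.3 in OTD, 25.4 in YAD and 28.1 in OAD. Vegfb was thus lower in the old library in telogen, while Vegfc, the growth factor of lymphatic vessels, was at 4.82 FPKM in OTD and 2.72 in YTD. All 4 of these ligands (Vegfb, Vegfc, Vegfd and Pgf) were lower in anagen in both ages, beside 48.8% of genes above 0 in young and 49.0% in old mice. Their median log2 changes were -0.95 and -1.35, and 1 of them was higher in TPM in young mice. Among coreceptors Nrp1 and Nrp2 differed in opposite directions between phases. Nrp1 was at 16.1 FPKM in YTD, 17.7 in OTD, 6.58 in YAD and 5.004 in OAD. Nrp2 was at 9.05 FPKM in YTD, 11.6 in OTD, 24.5 in YAD and 23.3 in OAD.

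Vessel subtype genes were mixed. In telogen each of 7 arterial genes was higher in OTD than YTD as deposited, beside 45.8% of genes above 0. Bmx had the largest rise, at 3.90 against 1.53 FPKM. In anagen 3 of the 7 were higher in OAD than YAD (median log2 change -0.01), beside 50.0% of genes above 0. That count was 2 in TPM and 4 with the median of ratios, beside 25.3% and 52.2% of genes. Of the same 7 genes 6 were lower in anagen in both ages, or 5 in TPM in young mice, and Efnb2, an ephrin of arteries that skin epithelium also expresses, was higher, at 34.3 FPKM in YAD against 6.48 in YTD. Of 8 venous and activated genes 7 were higher in OTD than YTD, beside 45.8% of genes above 0. Among them Sele, the leukocyte adhesion receptor E-selectin, stood at 13.7 FPKM in OTD and 4.07 in YTD, or 1.54 on the log2 scale. Selp and Icam1 also passed 1, while 1.67% of genes above 0 were higher by that size. Of 8 genes of sprouting tip cells 5 were higher in OTD than YTD, beside 45.8% of genes above 0. Plaur had the largest rise, at 13.6 against 4.25 FPKM, while Esm1, Apln and Unc5b were lower. Unc5b, a netrin receptor of tip cells, was at 3.48 FPKM in YTD, 1.77 in OTD, 61.1 in YAD and 49.8 in OAD. It ran against its list, as the other tip cell genes were all lower in YAD than YTD as deposited. In old mice they were lower in anagen too, except Esm1, at 0.546 FPKM in OAD against 0.282 in OTD. Apln was at 4.10 FPKM in YTD, 2.20 in OTD, 0.909 in YAD and 0.448 in OAD.

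Genes of the hypoxia response, which can raise Vegfa, were mixed. In telogen 8 of 15 were higher in OTD (median log2 change 0.07), beside 45.8% of genes above 0. Without mitochondrially encoded genes 11 of 15 were higher, beside 60.9% of genes. In anagen 13 of 15 were higher in OAD (median 0.15), beside 50.0% of genes. In TPM this became 7 of 15 and -0.06, beside 25.3% of genes. The TPM median over genes with an FPKM of at least 1 was -0.21. Between phases 13 of 15 were lower in YAD than YTD and 12 of 15 in OAD than OTD, beside 48.8% and 49.0% of genes. In TPM these counts became 7 and 9, beside 30.6% and 34.4% of genes. Bnip3, a mitophagy gene, was at 247 FPKM in YTD, 225 in OTD, 30.4 in YAD and 36.5 in OAD, while Ero1l, an oxidase of protein folding, was at 7.39, 6.89, 26.3 and 38.6 FPKM in the same order. Among inhibitors of vessel growth, 5 of 6 genes were higher in OTD than YTD, beside 45.8% of genes above 0. Thbs1 was at 12.7 FPKM in OTD and 3.59 in YTD, while Vash1 was lower, at 1.58 FPKM in OTD and 3.29 in YTD.

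**Figure D4:**
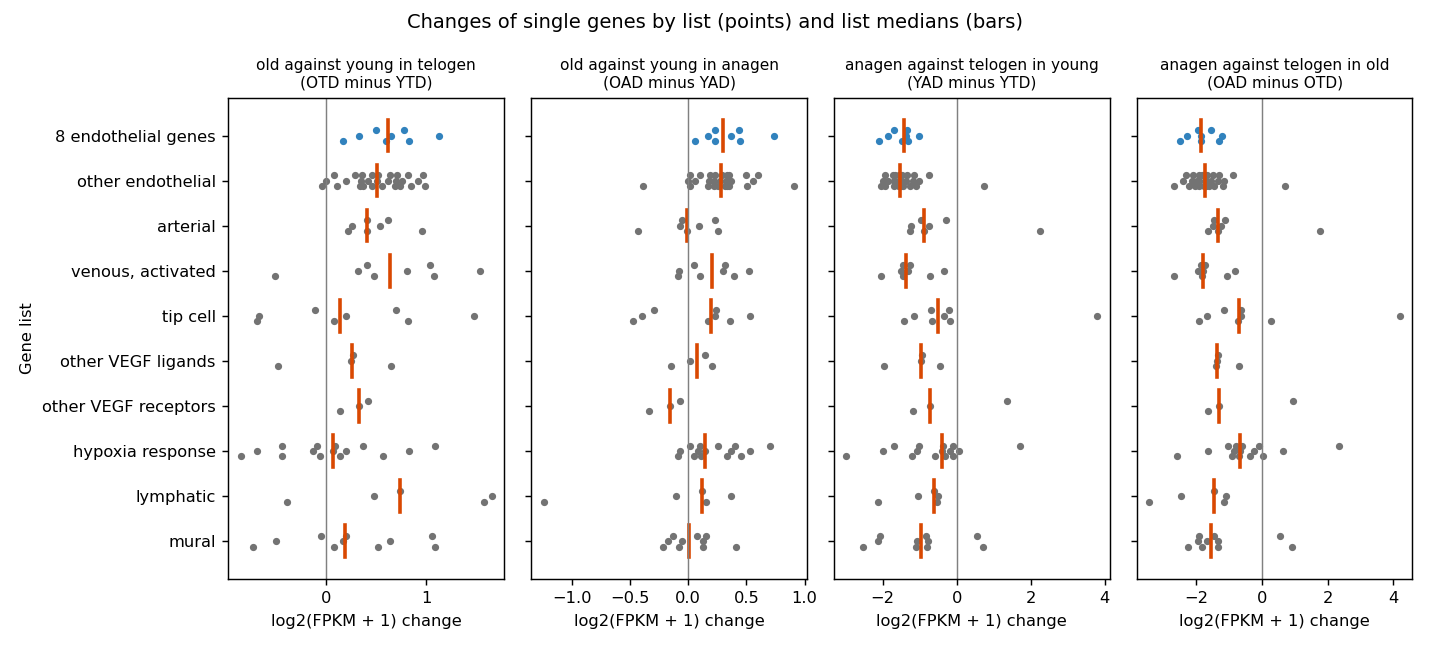
The log2(FPKM + 1) change of single genes (points) and the list median (bars) for lists of vessel genes in the 4 comparisons; the horizontal ranges differ between panels. The 8 endothelial genes (blue) have medians of 0.62, 0.30, -1.42 and -1.85, and the 28 other endothelial genes 0.51, 0.28, -1.54 and -1.73.

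Marker lists of other cell types also differed between the libraries. Adipocyte genes, 10 in number, summed to 4947 FPKM in YTD, 5236 in OTD, 1185 in YAD and 1691 in OAD, and all 10 were lower in anagen in both ages. Macrophage genes summed to 447 FPKM in YTD, 756 in OTD, 117 in YAD and 94.0 in OAD, and 8 of 9 were higher in OTD than YTD and none of 9 in OAD than YAD. Genes of mural cells, which wrap the vessels, summed to 403, 669, 202 and 196 FPKM in the same order of libraries, and 7 of 10 were higher in OTD than YTD. Over genes above 0, 45.8% were higher in OTD than YTD and 50.0% in OAD than YAD. The shares lower in anagen were 48.8% in young and 49.0% in old mice.

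Skeletal muscle genes summed to 108697 FPKM in YTD, 69370 in OTD, 12348 in YAD and 16507 in OAD, and all 13 were lower in anagen, or 12 in TPM in old mice. In the same order epidermal genes summed to 89.4, 59.0, 942 and 1345 FPKM and melanocyte genes to 14.6, 12.4, 750 and 454 FPKM. Lymphatic genes summed to 26.9, 74.6, 7.95 and 7.28 FPKM, with Pdpn listed at 0 in each library and Prox1, the factor that defines lymphatic endothelium, between 0.276 and 1.74 FPKM. Platelet genes summed to 66.7, 75.6, 29.2 and 31.7 FPKM, of which Pf4 gave 72.3 FPKM in OTD and 8.84 in OAD, and red cell genes to 602, 749, 226 and 367 FPKM. The part of these cell types in the differences of the vessel genes was not tested.

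**Figure D5:**
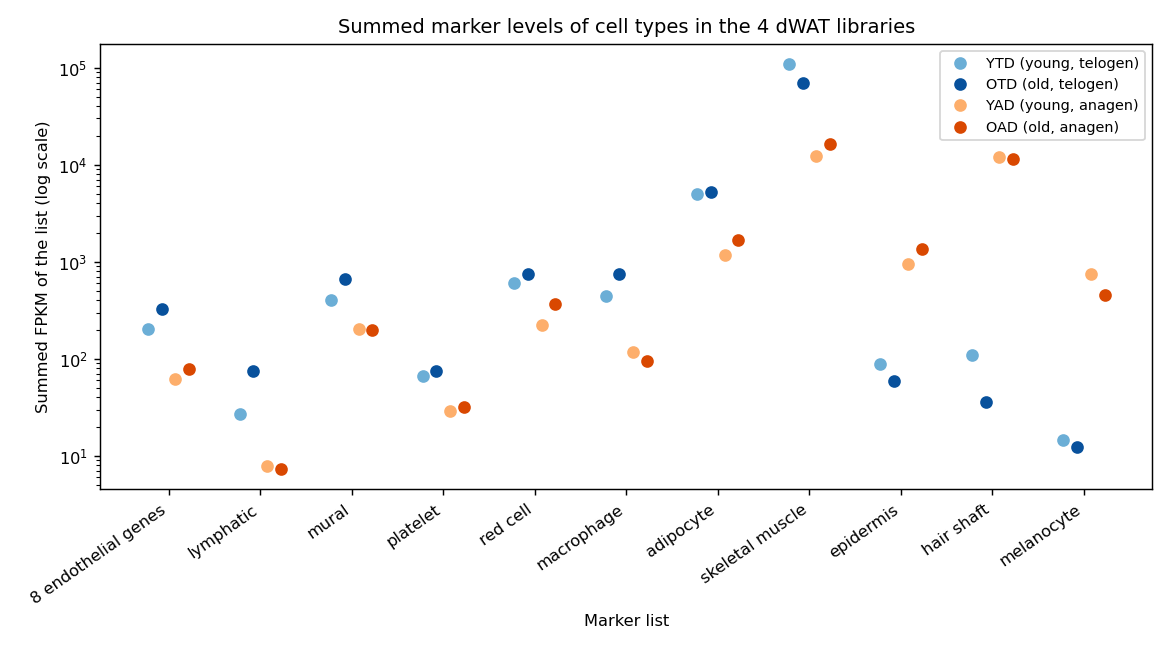
Summed FPKM (log scale) of marker lists of cell types in the 4 libraries. The 8 endothelial genes range from 327 FPKM in OTD to 61.5 in YAD, adipocyte and muscle genes are lower and hair shaft, epidermal and melanocyte genes higher in both anagen libraries.

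The profile of the 8 endothelial genes over the 4 libraries was compared with that of all genes at an FPKM of at least 1 in each library, as the distance between log2(FPKM + 1) values after each gene's mean was subtracted. Of 11001 genes the nearest were Nrip2 (0.0370), Atp2a3 (0.0429), Lox (0.0581), Ifnar2 (0.0659) and Pparg (0.0806), the last being the master regulator of fat cells. Of 27 other endothelial genes compared, 9 were among the nearest 100. Within the 8, Tek lay nearest to their mean profile (0.165) and Emcn farthest (0.777), and Vegfa was at 1.23. A distance over 4 libraries is a description of likeness only.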

How the data were processed

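Total RNA of microdissected dWAT with an integrity number above 7.5 was made into 1 library per group. The authors deposited 1 table of FPKM per library, with 22913 genes, positions on GRCm38 and a feature length, of which 97.0% are multiples of 3. The submitters' processing notes name bcl2fastq, TopHat2 and GRCm38, and the counting tool, annotation and strand setting are not given in the sources used here.

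FPKM were used as deposited. With 1 library per group no test was run and no p-value is given. A change is the difference of log2(FPKM + 1) between libraries, counted when at least 1 in size. Fold changes are ratios of FPKM. Fragments were estimated from the lowest FPKM of features of at least 2000 bp, with exact Poisson or Clopper-Pearson 95% intervals, which cover counting error only. A value of 3 fragments was taken as the floor, and all members lay above it. The steps were tested on simulated data.

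The members and lists were chosen with earlier results of these data known. Named genes are the 10 members, the largest rise and fall of each list in each comparison, other list genes where a level was needed, and the 5 genes nearest in profile. Selp, Icam1 and Esm1 were named after their values were seen. Alternatives were pseudocounts of 0.1 and 0.01, a minimum FPKM of 1, a fold of 1.5, TPM, the median of ratios, and rescaling without mitochondrially encoded genes or without 146 mitochondrial, muscle, hair, keratin and melanocyte genes. A scale relative to 28 other endothelial genes was added after the data were seen. Symbols and gene types came from GENCODE M21 and promoters from RefSeq. Python 3.11.15, numpy 2.4.6, pandas 2.3.3, scipy 1.17.1 and matplotlib 3.10.9 were used.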

Additional observations from a re-analysis of the deposited data

Results flagged for a closer look

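The difference between old and young dWAT had opposite signs in the 2 phases for Angpt2, which was higher in OTD than YTD (log2 change 0.42) and slightly lower in OAD than YAD (log2 change -0.05). Each sign rests on 1 library against 1, and the difference between the phases was not tested. The telogen fold of 1.46 had a counting interval of 1.09 to 1.96, and the anagen fold of 0.937 had one of 0.564 to 1.55, which included equal levels. In TPM the anagen value of Angpt2 was -0.18, but TPM moved the median of genes with an FPKM of at least 1 to -0.21. Relative to that median Angpt2 was at 0.03 in TPM, and at -0.05 relative to the median as deposited. The sign in anagen therefore depended on the scaling. The anagen values rest on 33 and 35 estimated fragments.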

How the results depend on the processing

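No paired analysis was possible because each group has 1 library and the labels give no replicate numbers. In telogen, 2 members passed a log2 change of 1 between ages without mitochondrially encoded genes, 5 passed at a fold of 1.5 and 0 passed relative to the 28 other endothelial genes, against 1 as deposited. The median of the 8 was 0.83 without mitochondrially encoded genes, 0.76 with muscle, hair, keratin and melanocyte genes left out too, and 0.10 relative to the 28. In anagen it was 0.10 in TPM, 0.16 without mitochondrially encoded genes and 0.0041 relative to the 28, and 1 member passed at a fold of 1.5. Between phases in young mice the median was -1.62 and -1.65 with pseudocounts of 0.1 and 0.01, -0.70 in TPM, -1.23 and -1.20 with the same genes left out, and 0.0201, on the other side of 0, relative to the 28. The count was 2 in TPM and 1 relative to the 28. In old mice the median was -1.26 in TPM, -2.01 without mitochondrially encoded genes and -0.0626 relative to the 28, where the count was 1. The scale relative to the 28 removes by construction what endothelial genes share, and for the other settings the cause of the shift was not tested. The other 46 recomputed medians and counts stayed within their limits, and of 63 recomputed values of Vegfa and Angpt2 20 moved beyond their counting intervals. Angpt2 gave no value between ages in anagen under the minimum FPKM of 1. Depth limits Angpt2 and, in anagen, Emcn. No spread between animals can be had from single libraries.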
